A study of Mus musculus with 6 samples.

Results

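The genes examined were *Bcl2* and 9 further genes of the Bcl2 family and of cell survival (*Bcl2l1*, *Mcl1*, *Bax*, *Bak1*, *Bid*, *Bbc3*, *Pmaip1*, *Bcl2l11* and *Birc5*), measured in squamous cell carcinoma cells of mouse skin. They were chosen by symbol, and every probe set that the platform annotation gives to 1 of these symbols alone was taken. This gave 22 of the 45141 probe sets on the array, for 9 of the 10 genes. The annotation used here names no probe set for *Bax*, whose expression was therefore not analysed here. In RefSeq (GRCm38.p6) the measured genes lie on chromosomes 1 (*Bcl2*), 2 (*Bcl2l1* and *Bcl2l11*), 3 (*Mcl1*), 6 (*Bid*), 7 (*Bbc3*), 11 (*Birc5*), 17 (*Bak1*) and 18 (*Pmaip1*).

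EpCAM+ plastic cancer cells came from 3 independent moderately or poorly differentiated carcinomas (MD/PD-SCCs), and full epithelial cancer cells from 3 independent well-differentiated carcinomas (WD-SCCs), with 1 array per tumor. Both kinds of cell were sorted as α6-integrin+CD45-EpCAM+, and the EpCAM+ plastic sort held cells with high and with low EpCAM. All tumors went back to K14-HPV16 Tg/+ mice, in which the keratin 14 promoter drives the viral transgene in basal keratinocytes, and the first tumors arose spontaneously or after DMBA/TPA. In this model MD/PD-SCCs arise when WD-SCCs are engrafted serially in nude mice, which lack mature T cells. The labels do not give the lineage of each tumor, nor an age. The p-values below measure the spread between these tumors, and an exact permutation test of 3 against 3 arrays cannot give a p below 0.1.

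Proteins of the Bcl2 family set the threshold at which the outer mitochondrial membrane becomes permeable. *Bcl2*, *Bcl2l1* (Bcl-xL) and *Mcl1* encode pro-survival proteins that hold the effectors *Bax* and *Bak1* in check, and BH3-only proteins such as *Bid*, *Bbc3* (PUMA), *Pmaip1* (NOXA) and *Bcl2l11* (BIM) bind the pro-survival proteins or the effectors and lower that threshold. Once the membrane opens, cytochrome c joins APAF1 in the apoptosome, which activates caspase 9. *Birc5* encodes survivin, which belongs to the inhibitor of apoptosis (IAP) family by its BIR domain and works at the centromere as a subunit of the chromosomal passenger complex. In epithelial cells, BIM takes part in anoikis, the death that follows loss of attachment.

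*Bcl2l11* is a target of FOXO transcription factors in several cell types, and the part of these factors in its values was not tested. It had the largest difference of the measured genes, although none of its probe sets passed the test with all arrays. Its promoter is shown for this reason, with that of *Bbc3*, since these were the members whose window held a match to the FOXO motif GTAAACA or, read on the other strand, TGTTTAC. The windows are the 250 bases before a transcription start in RefSeq (GRCm38.p6), and the motif is in capitals. The *Bcl2l11* window is 1 of 2 for that gene and lies at chr2:128125788-128126037 on the plus strand. The first base of its motif is 227 bases before the start. The *Bbc3* stretch, from 1 of 3 windows of that gene, lies at chr7:16310083-16310111 on the plus strand, with the motif 167 bases before the start.
Bcl2l11: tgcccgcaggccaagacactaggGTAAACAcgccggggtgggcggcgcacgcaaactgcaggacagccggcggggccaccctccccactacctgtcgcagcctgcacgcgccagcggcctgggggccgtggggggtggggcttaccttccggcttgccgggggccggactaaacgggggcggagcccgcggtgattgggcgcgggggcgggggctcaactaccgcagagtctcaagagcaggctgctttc
Bbc3: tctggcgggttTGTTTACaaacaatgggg
Of 32851 windows of this length over all genes, 1040 (3.17%) held the motif on either strand. Among 14 windows of 9 members, 2 held it. These 9 differ from the measured genes, since *Bax* was searched and *Pmaip1* was not. A match describes the letters only and is no evidence of a bound site, and the windows without a match say nothing about the factor.

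RNA of the sort markers went with the labels of the sorted cells in both groups, while the arrays do not measure surface protein. *Itga6*, which encodes α6-integrin, had a mean log2 value of 9.61 in EpCAM+ plastic and 9.06 in full epithelial cells. *Epcam* had a log2 value of 10.99 ± 0.19 (SD, n = 3) in EpCAM+ plastic and 10.69 ± 0.26 (SD, n = 3) in full epithelial cells, and *Ptprc*, which encodes CD45, was at 2.94 in EpCAM+ plastic and 2.97 in full epithelial cells. A log2 value of 5.73 marks the top of the background, being the 95th percentile of 23 control probe sets without a target. Unless single arrays are named, a probe set was set against this level by its mean over all arrays. The mean of 6 epithelial markers ranged from 10.77 to 11.06 in EpCAM+ plastic and from 10.64 to 10.99 in full epithelial arrays. The mean of 10 immune markers ranged from 4.40 to 4.47 in EpCAM+ plastic and from 4.45 to 4.54 in full epithelial arrays, with 2 of 10 above background. Of 7 fibroblast markers only *Col1a1* and *Col3a1* were above background by that mean, although *Dcn* was at 6.84 in EpCAM+ plastic replicate 2. The fibroblast list mean ranged from 4.45 to 5.36 in EpCAM+ plastic and from 4.84 to 5.10 in full epithelial arrays. By the mean over all arrays, endothelial and melanocyte markers were below background (0 of 6 above it in each list). So were all but 1 of 5 Merkel cell markers. In single arrays, the endothelial marker *Pecam1* was above it at 6.09 in EpCAM+ plastic replicate 1. The Merkel cell marker *Sox2* was just above it at 5.77 in EpCAM+ plastic replicate 2. No marker of any list passed the test. Correlations between arrays were 0.979 to 0.990 within groups and 0.954 to 0.976 between them. In bulk RNA of sorted cells, fewer cells that express a gene and less RNA per cell cannot be told apart.

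None of the 9 measured genes passed the test (limma, adjusted p under 0.05 over all probe sets), by the brightest probe set of each gene or by any of its probe sets. By the brightest probe set, 7.21% of all 17097 genes were called, 5.3% higher and 1.91% lower in EpCAM+ plastic cells. By probe set the share called was 5.98%, with 4.11% higher and 1.87% lower. Of the 22 probe sets of the members, 18 were above background, 0 passed, and 7 higher and 1 lower had an unadjusted p under 0.05, where 12.6% and 8.66% of all probe sets did. Adjusted p over the 22 probe sets ran from 0.0511 to 0.968. Before adjustment, 3 genes (*Bid*, *Bcl2l11* and *Birc5*) were higher at a p under 0.05 and 0 lower, where 14.9% and 9.01% of all genes were. The log2 difference, EpCAM+ plastic minus full epithelial, was positive in 8 of 9 genes, with a median of 0.26 and a range from −0.29 to 1.36, against a median of −0.02 over all genes. *Mcl1* was the gene below 0. The groups did not overlap for 3 genes (*Bak1*, *Bid* and *Bcl2l11*), all higher in EpCAM+ plastic cells, where 15.4% of all genes did not overlap in that direction and 13.7% in the other.

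**Figure D1:**
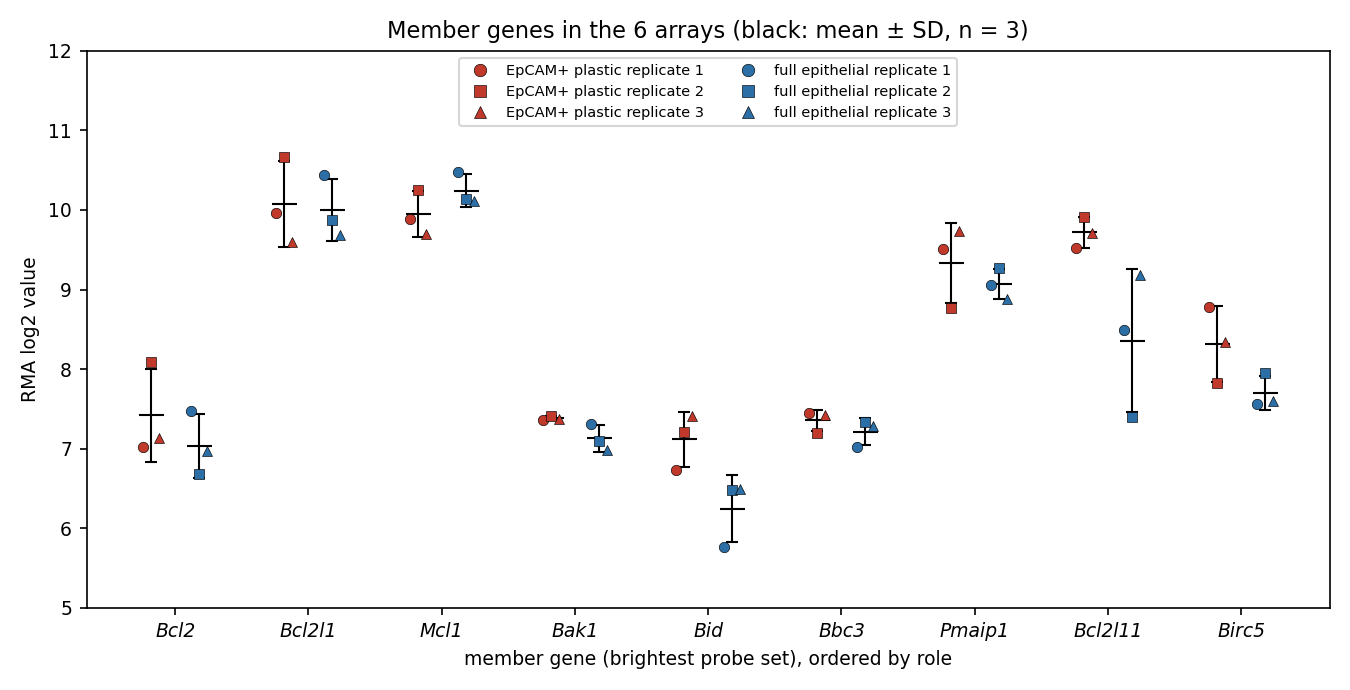
Deposited log2 value (vertical axis) of the brightest probe set of each of the 9 measured genes, with EpCAM+ plastic (red) left of full epithelial (blue), 1 symbol per array whose shape gives the replicate, and black bars for the mean ± SD (n = 3). The 3 EpCAM+ plastic arrays lie above all 3 full epithelial arrays for *Bak1*, *Bid* and *Bcl2l11*, and the groups overlap for the other 6 genes.

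None of the 3 pro-survival genes passed the test, and their groups overlapped. *Bcl2* had log2 values of 7.02, 8.09 and 7.14 in EpCAM+ plastic and 7.47, 6.68 and 6.96 in full epithelial cells. Replicate 2 of EpCAM+ plastic stood above the other arrays, which overlapped. The log2 difference of *Bcl2* was 0.38 (SE 0.32, 95% interval −0.39 to 1.15, adjusted p = 0.576 from limma), and it was 0.04 without that array. A further *Bcl2* probe set lay below background.

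*Bcl2l1* showed the smallest difference of the members. It had values of 9.96, 10.67 and 9.60 in EpCAM+ plastic and 10.44, 9.87 and 9.68 in full epithelial cells, which overlapped over most of their range. Its log2 difference was 0.08 (SE 0.31, 95% interval −0.65 to 0.81, adjusted p = 0.918), and the 4 probe sets of the gene had differences from −0.10 to 0.08. The sign of the brightest turned when an array was left out, with −0.22 without replicate 2 of EpCAM+ plastic and −0.08 without replicate 3 of full epithelial cells.

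*Mcl1*, whose short-lived protein is removed by the ubiquitin ligases HUWE1 and FBXW7, had values of 9.89, 10.26 and 9.69 in EpCAM+ plastic and 10.48, 10.13 and 10.11 in full epithelial cells. Only replicate 2 of EpCAM+ plastic reached into the full epithelial range. The log2 difference was −0.29 (SE 0.17, 95% interval −0.71 to 0.12, adjusted p = 0.401 from limma), and −0.45 without that array. The 3 probe sets of *Mcl1* all had negative differences, and the dimmest of them was furthest from 0. That probe set had values of 8.84, 9.29 and 8.41 in EpCAM+ plastic and 9.84, 9.26 and 9.57 in full epithelial cells. Its log2 difference was −0.71 (SE 0.25, 95% interval −1.30 to −0.12), with an unadjusted p of 0.0247 and an adjusted p of 0.159 in limma, and the groups overlapped by replicate 2 of each.

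The pro-survival probe sets shared an order of arrays. In 9 of 9 of them, replicate 2 was the highest EpCAM+ plastic array and replicate 1 the highest full epithelial array. EpCAM+ plastic replicate 2 also had the highest fibroblast marker mean, 5.36 against 4.70 and 4.45 in the other EpCAM+ plastic arrays, but full epithelial replicate 1 had the lowest of its group, 4.84 against 4.85 and 5.10. *Col3a1*, a fibrillar collagen, was at 7.85 there, against 6.03 and 4.70 in the other EpCAM+ plastic and 7.11, 6.00 and 7.11 in the full epithelial arrays. The part of these markers in the values of *Bcl2*, *Bcl2l1* and *Mcl1* was not tested.

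*Bak1*, the measured effector, had the narrowest spread of the members among EpCAM+ plastic cells. Its brightest probe set was at 7.37, 7.41 and 7.37 in EpCAM+ plastic and at 7.31, 7.10 and 6.98 in full epithelial cells. All 3 EpCAM+ plastic arrays were higher, though by a gap of only 0.05. This gave a log2 difference of 0.25 (SE 0.11, 95% interval −0.00 to 0.51, adjusted p = 0.241 from limma). By its suffix this is a probe set whose probes can match transcripts of related genes, and the other *Bak1* probe set was below background with a difference of 0.02.

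Among the BH3-only genes, *Bid* and *Bcl2l11* were higher in every EpCAM+ plastic array, while *Bbc3* and *Pmaip1* overlapped between the groups. BID links death receptors to mitochondria once caspase 8 has cut it. Its brightest probe set had values of 6.73, 7.20 and 7.41 in EpCAM+ plastic and 5.76, 6.48 and 6.50 in full epithelial cells, with a gap of 0.23 between the groups. *Bid* thus had a log2 difference of 0.87 (SE 0.25, 95% interval 0.26 to 1.47), a fold of 1.83, and it did not pass after adjustment (unadjusted p = 0.0116, adjusted p = 0.105 from limma). The second-brightest *Bid* probe set had a difference of 0.53 (adjusted p = 0.260) with overlapping groups, and the dimmest was below background.

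*Bbc3* and *Pmaip1* are p53 targets that are induced by DNA damage in many cell types. *Bbc3* was at 7.45, 7.20 and 7.42 in EpCAM+ plastic and at 7.02, 7.33 and 7.28 in full epithelial cells, with a log2 difference of 0.14 (SE 0.12, 95% interval −0.15 to 0.44, adjusted p = 0.577). *Pmaip1*, whose protein binds MCL1, was at 9.51, 8.76 and 9.73 in EpCAM+ plastic and at 9.06, 9.27 and 8.88 in full epithelial cells. Replicate 2 was the lowest of all arrays for *Pmaip1*, below every full epithelial array. The log2 difference was 0.26 (SE 0.25, 95% interval −0.34 to 0.86, adjusted p = 0.620 from limma), and 0.55 without that array (adjusted p = 0.0972).

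*Bcl2l11* had the largest difference of the members. Its 5 probe sets were all higher in EpCAM+ plastic cells with no overlap between the groups, and the folds ran from 1.87 to 2.57. Over the whole array, 13.5% of probe sets were without overlap in that direction and 13.2% in the other. These 5 probe sets read 1 gene in the same 6 samples and are not independent of each other. None passed at an adjusted p under 0.05, although 2 lay close to it.

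The brightest *Bcl2l11* probe set (1456005_PM_a_at) had log2 values of 9.52, 9.92 and 9.71 in EpCAM+ plastic and 8.49, 7.40 and 9.18 in full epithelial cells. The full epithelial tumors spread over 1.78 on this scale and the EpCAM+ plastic tumors over 0.39. Between the group means the log2 difference was 1.36 (SE 0.41, 95% interval 0.38 to 2.35), a fold of 2.57, with an unadjusted p of 0.0139 and an adjusted p of 0.115 in limma. The spread among full epithelial tumors was thus wide beside the difference itself.

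The *Bcl2l11* probe set with the smallest p (1426334_PM_a_at) had values of 8.02, 8.32 and 7.82 in EpCAM+ plastic and 6.95, 6.46 and 7.41 in full epithelial cells. Its log2 difference was 1.11 (SE 0.25, 95% interval 0.52 to 1.70), a fold of 2.16, with an unadjusted p of 0.00314 and an adjusted p of 0.0511. The other 3 had differences of 1.31, 1.21 and 0.90, with adjusted p of 0.0892, 0.0896 and 0.0540. In 4 of 5 probe sets the difference was at least 1 on the log2 scale.

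The order of the arrays was nearly fixed across the *Bcl2l11* probe sets. In 5 of 5, full epithelial replicate 2 was the lowest array, full epithelial replicate 3 the highest of its group and EpCAM+ plastic replicate 2 the highest of all. The gap between the lowest EpCAM+ plastic and the highest full epithelial array was 0.35 to 0.43. Without full epithelial replicate 3, 2 of the 5 probe sets passed (adjusted p = 0.0382 and 0.0435). Without full epithelial replicate 2, the differences were 0.70 to 0.94 and 0 passed, and the brightest stood at 0.88 against 1.36 with all arrays. The mean of the 5 probe sets as a single value gave a log2 difference of 1.18 (SE 0.31, adjusted p = 0.0694 from limma).

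The 3 genes below had the pattern most like that *Bcl2l11* probe set over the 6 arrays, by the root mean square difference of values centred on each gene's mean, among 7734 genes above background. They were *B4galt7* (0.165), a galactosyltransferase of proteoglycan synthesis, *Hip1* (0.170), a clathrin adaptor, and *P2rx4* (0.170), an ATP-gated ion channel. The 24 genes nearest to *Bcl2l11* on chromosome 2 had a median difference of 0.00331, with 0 of 24 called. Around the 9 measured members such medians ran from −0.04 to 0.17.

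*Birc5* was higher on average in EpCAM+ plastic cells, and its groups overlapped. It had values of 8.78, 7.83 and 8.34 in EpCAM+ plastic and 7.56, 7.95 and 7.60 in full epithelial cells. EpCAM+ plastic replicate 2 lay below full epithelial replicate 2. The log2 difference was 0.62 (SE 0.24, 95% interval 0.04 to 1.20), a fold of 1.53, with an unadjusted p of 0.0406 and an adjusted p of 0.210 in limma. Without EpCAM+ plastic replicate 2 it was 0.86 (adjusted p = 0.0551).

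**Figure D2:**
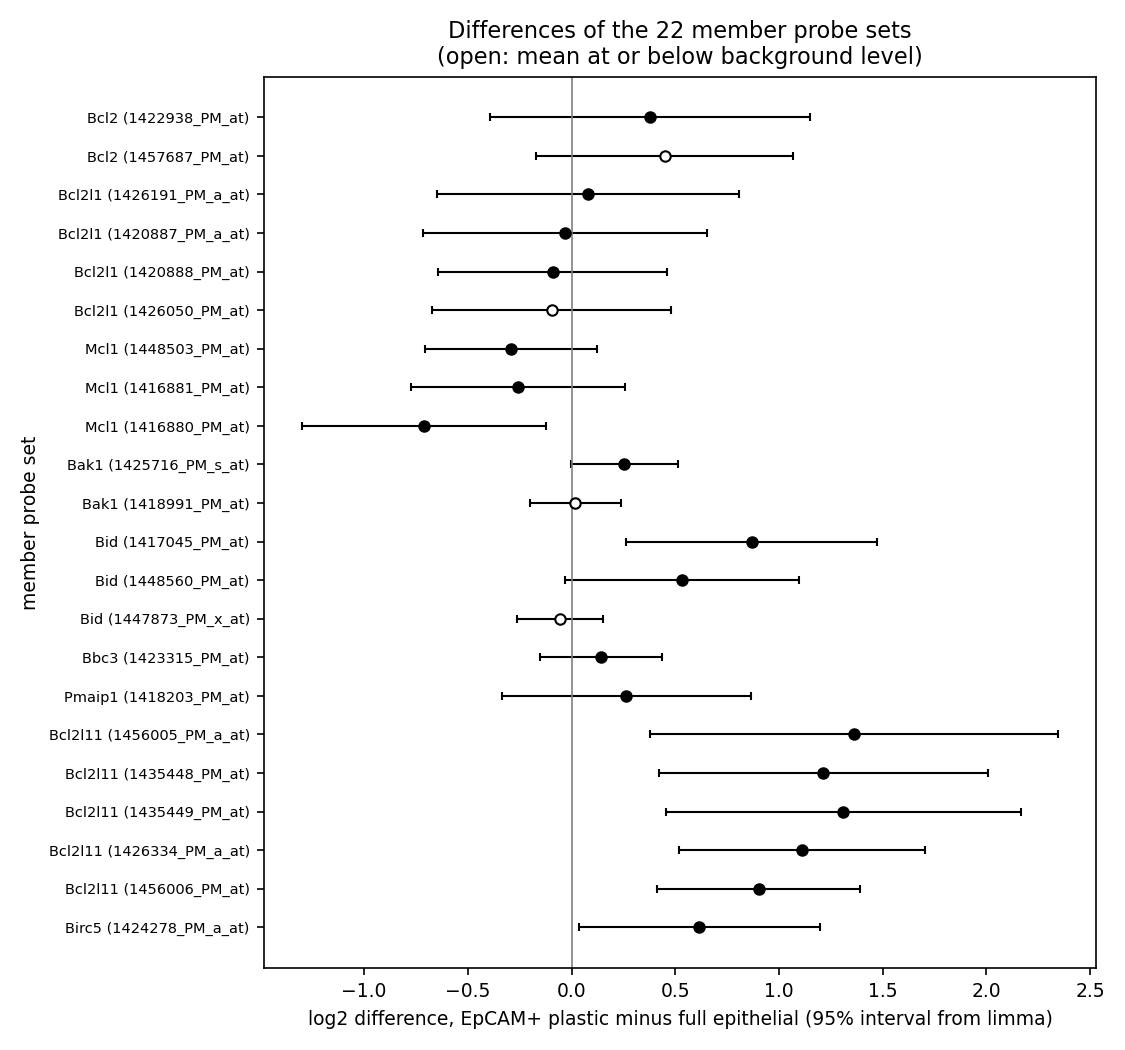
Log2 difference (horizontal axis, EpCAM+ plastic minus full epithelial) with its 95% interval from limma for the 22 probe sets of the 9 measured genes, closed symbols marking probe sets above background and open symbols the others. The intervals of the 5 *Bcl2l11* probe sets, 1 *Bid* and 1 *Birc5* probe set lie above 0, that of 1 *Mcl1* probe set lies below 0, and none passed after adjustment.

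Survivin acts with AURKB, INCENP and borealin (*Cdca8*) in the chromosomal passenger complex. *Aurkb*, its kinase, had a log2 difference of −0.22 (adjusted p = 0.619) and *Cdca8* of −0.03 (adjusted p = 0.948). *Incenp*, the scaffold, had a difference of 0.77 (adjusted p = 0.0724) by its brightest probe set, and 1 of its 3 probe sets passed (adjusted p = 0.0423). Of 22 measured genes of this complex and of G2/M, 0 passed higher and 1 lower by the brightest probe set, with a median of 0.02. Over all genes, 5.3% were called higher and 1.91% lower. Before adjustment, 3 of the 22 were higher and 2 lower at a p under 0.05, where 14.9% and 9.01% of all genes were. The gene that passed was *Cdc20*, the activator of the anaphase-promoting complex. It had values of 8.26, 7.97 and 7.66 in EpCAM+ plastic and 10.49, 10.93 and 10.52 in full epithelial cells, and fell by 2.68 on the log2 scale (adjusted p = 0.00381 from limma).

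Among the other Bcl2 family genes, 0 of 14 measured passed in either direction by the brightest probe set, with a median of −0.02. Before adjustment, 2 were higher and 2 lower at a p under 0.05, where 14.9% and 9.01% of all genes were. *Bcl2l2*, the pro-survival gene of Bcl-w, had a log2 difference of 0.17 (adjusted p = 0.402) and *Bok*, an effector-like gene, of 0.05 (adjusted p = 0.940). The BH3-only genes *Bad* and *Bmf* had differences of 0.32 and −0.05 (adjusted p = 0.221 and 0.886). None of these 4 passed the test.

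*Bnip3l* (NIX), a mitophagy receptor with a BH3-like region, was picked out after its values were seen. Its dimmest probe set had values of 8.67, 8.73 and 8.08 in EpCAM+ plastic and 10.37, 9.91 and 9.51 in full epithelial cells. It fell by 1.44 on the log2 scale (SE 0.26, fold 0.370, adjusted p = 0.0298 from limma). A further probe set, at 9.95, 10.04 and 9.42 in EpCAM+ plastic and 11.33, 11.07 and 10.83 in full epithelial cells, fell by 1.27 (SE 0.20, fold 0.413, adjusted p = 0.0206). The brightest had a difference of −0.38 (adjusted p = 0.107), so the probe sets of *Bnip3l* disagreed in size and in call. With 1 array left out, the first of these passed in 2 of 6 fits and the second in 3 of 6.

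**Figure D3:**
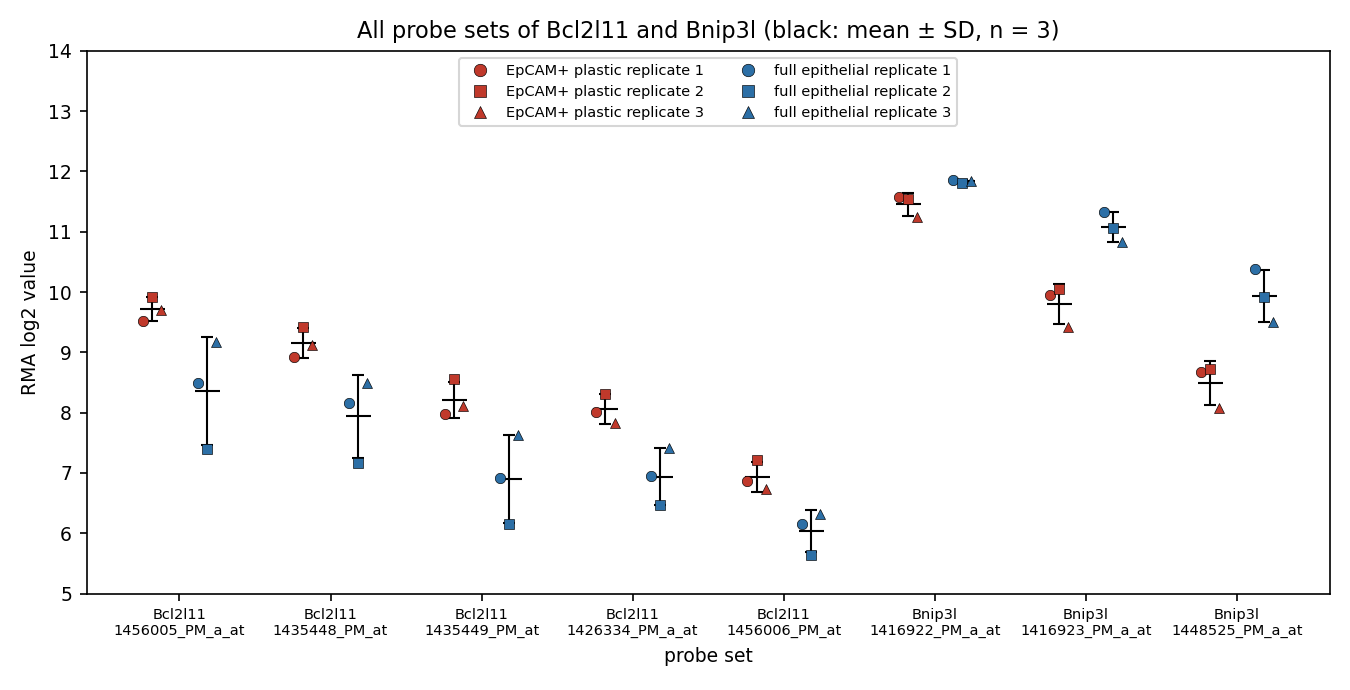
Deposited log2 value (vertical axis) on each array for the 5 *Bcl2l11* and the 3 *Bnip3l* probe sets, with EpCAM+ plastic (red) left of full epithelial (blue), the symbol shape giving the replicate and black bars for the mean ± SD (n = 3). The EpCAM+ plastic arrays lie above all full epithelial arrays in the 5 *Bcl2l11* probe sets and below them in the 3 *Bnip3l* probe sets, whose differences are −0.38, −1.27 and −1.44.

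IAP proteins inhibit caspases, and *Diablo* (SMAC) and *Htra2* encode their mitochondrial antagonists. Of 10 measured genes of this list, 0 passed in either direction and the median was 0.12. At a p under 0.05 before adjustment, 3 were higher and 0 lower, where 14.9% and 9.01% of all genes were. *Xiap*, which binds caspases directly, had a difference of −0.27 (adjusted p = 0.237) by its brightest probe set. All 7 *Xiap* probe sets had negative differences, from −0.73 to −0.06, and 1 passed (adjusted p = 0.0199). *Birc3* (cIAP2) had a difference of 0.71 (adjusted p = 0.336), while *Birc2* (cIAP1) was below background, with a difference of −0.21 (adjusted p = 0.634). *Diablo* and *Htra2*, named after their values were seen, had differences of 0.74 and 0.87 (adjusted p = 0.0533 and 0.0916), and *Htra2* was below background on average, so that its value does not show a size.

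Downstream of the mitochondrion, *Apaf1* and *Aifm1* rose in EpCAM+ plastic cells, and 0 of the 17 measured caspase and apoptosome genes fell, where 5.3% of all genes were called higher and 1.91% lower. The median of the list was 0.25. Before adjustment, 6 of its genes were higher and 0 lower at a p under 0.05, where 14.9% and 9.01% of all genes were. *Apaf1*, the scaffold of the apoptosome, had values of 7.49, 7.63 and 8.07 in EpCAM+ plastic and 6.95, 6.85 and 6.60 in full epithelial cells. It rose by 0.93 on the log2 scale (SE 0.18, adjusted p = 0.0328), with 1 of its 2 probe sets passing. *Aifm1*, a mitochondrial flavoprotein that can move to the nucleus in cell death, had values of 7.05, 7.45 and 7.26 in EpCAM+ plastic and 6.32, 6.59 and 6.52 in full epithelial cells. It rose by 0.78 (SE 0.13, adjusted p = 0.0251). With 1 array left out in turn, *Apaf1* passed in 1 of 6 fits (adjusted p = 0.0496 to 0.0898) and *Aifm1* in 2 of 6 (0.0424 to 0.0814), with positive differences in all of them. *Casp9*, the caspase of the apoptosome, had a difference of 0.47 (adjusted p = 0.0924), and *Cycs*, cytochrome c, of 0.25 (adjusted p = 0.350).

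Genes that act on Bcl2 family members gave 4 higher and 0 lower of 25 measured, with a median of 0.12, where 5.3% and 1.91% of all genes were called. Before adjustment, 9 were higher and 5 lower at a p under 0.05, where 14.9% and 9.01% of all genes were. *Usp9x*, a deubiquitinase of MCL1, had values of 7.03, 6.20 and 7.47 in EpCAM+ plastic and 5.59, 5.30 and 5.14 in full epithelial cells, where it was below background in all 3. It rose at least 2.25-fold, taking the background level for the full epithelial cells (fitted log2 difference 1.56, adjusted p = 0.0383). The second *Usp9x* probe set, whose mean over all arrays was below background, passed as well. Its EpCAM+ plastic mean was 1.65-fold above the background level. *Fbxw7*, whose ligase marks MCL1 for degradation, rose as well, by 0.87 (adjusted p = 0.0371), again in 2 of 2 probe sets. *Trib3*, a pseudokinase of the stress response downstream of ATF4, rose by 1.35 (adjusted p = 0.0251). *Bag1*, a co-chaperone that binds BCL2, rose by 1.01 (adjusted p = 0.0325), and 10 of its 24 nearest genes on chromosome 4 were called higher, with a median of 0.42. *Foxo3*, named after its values were seen, had a difference of −0.61 (SE 0.14, adjusted p = 0.0603), with negative values in 3 of 3 probe sets. By a dimmer probe set, *E2f1*, named after its values were seen, also passed (difference 0.74, adjusted p = 0.0446), while its brightest had a difference of 0.40 (adjusted p = 0.221). After a further quantile normalization, *Bag1* and *Fbxw7* did not pass (adjusted p = 0.0613 and 0.0631). Each of the 4 genes that rose passed in only 1 or 2 of the 6 fits that left out an array.

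Over the 104 measured genes of these lists and of a list of dissociation stress genes, the median was 0.04, and 94 genes did not pass, beside 6 that rose (5.77%) and 4 that fell (3.85%), where 5.3% of all genes were called higher and 1.91% lower. Cells were digested overnight before the sort, and stress genes were therefore measured beside the others. Of 16 such genes 0 rose and 3 fell, namely *Btg2* by 1.41 (adjusted p = 0.00567), *Jun* by 0.81 (adjusted p = 0.0240) and *Dusp1* by 0.58 (adjusted p = 0.0383) on the log2 scale. Before adjustment, 2 further stress genes were higher at a p under 0.05, where 14.9% of all genes were. They were *Egr1* with a difference of 1.05 (adjusted p = 0.0585) and *Socs3* with 0.74 (adjusted p = 0.0896), both named after their values were seen. With 1 array left out, *Cdc20* and *Btg2* passed in 6 of 6 fits, *Jun* in 2 and *Dusp1* in 1, and *Dusp1* did not pass after a further quantile normalization (adjusted p = 0.0535). The mean of the stress list ranged from 9.89 to 10.08 in EpCAM+ plastic and from 9.94 to 10.19 in full epithelial arrays, and its part in the values of the Bcl2 family was not tested.

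**Figure D4:**
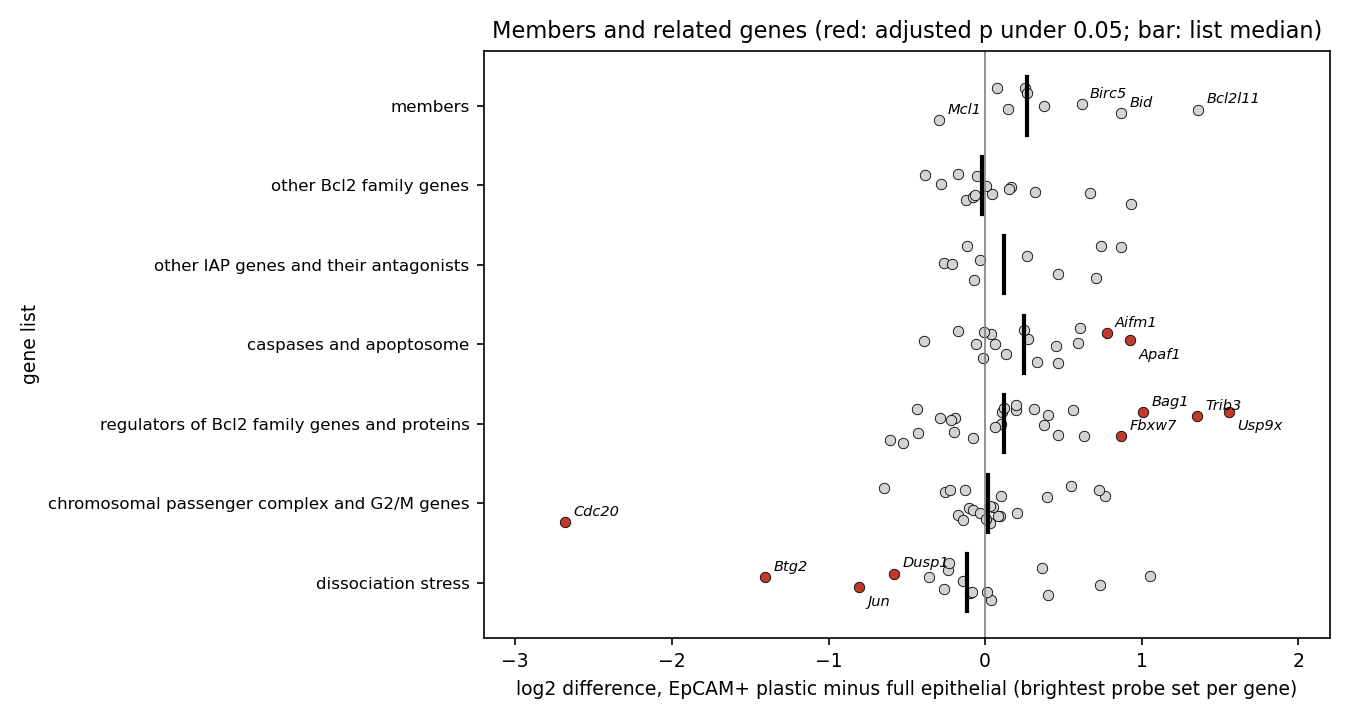
Log2 difference (horizontal axis, EpCAM+ plastic minus full epithelial) of the brightest probe set of each gene in the member list and 6 related lists, with the bar at each list's median and red points for an adjusted p under 0.05. The 6 genes that rose are caspase, apoptosome or regulator genes, the 4 that fell are *Cdc20*, *Btg2*, *Jun* and *Dusp1*, and no member is red.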

How the data were processed

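RNA of 6 sorted samples was amplified by Pico profiling and hybridised to Affymetrix mouse arrays. The values are RMA-normalized log2 signals as deposited by the authors (for the RMA version, not given in the sources used here), and both deposited tables held the same values (largest difference 0). By the platform annotation, 28898 of 45141 probe sets belong to 1 gene and 551 to several, and 15692 are not listed. The expression of genes with no listed probe set, such as *Bax*, was not analysed here. A gene was taken as its single-gene probe set with the highest mean. Differences were tested with limma 3.58.1 in R 4.3.3 (lmFit, eBayes, no covariate, 4 residual and 2.81 prior degrees of freedom). The p-values were adjusted by Benjamini-Hochberg over the whole array, and a probe set passed at an adjusted p under 0.05. The fit was tested on simulated data. Arrays give no read depth, and the number of arrays limits the precision. Probe sets with an s suffix (*Bak1*, *Fbxw7*, *Htra2*, *Aurkb*, *Cdca8*) or an x suffix (*B4galt7*, *Bmf*) can match several transcripts. RMA can shrink differences of dim probe sets. Alternatives were a filter on dim probe sets, an intensity trend with a robust prior, median centring, a further quantile normalization, the mean of a gene's probe sets, a replicate block and each array left out. The members and lists were chosen with earlier results of these data known. All members were named, with up to 4 passing genes per list by smallest p, defining partners of the same complexes whatever their values, and the 3 genes most like *Bcl2l11*. Named besides, after their values were seen, were *Bnip3l*, *Diablo*, *Htra2*, *Foxo3*, *E2f1*, *Egr1* and *Socs3*. Promoter windows came from RefSeq (GRCm38.p6).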

Additional observations from a re-analysis of the deposited data

How the results depend on the processing

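The brightest probe set of 0 of 9 members passed, in either direction, under every alternative run. By any probe set, 0 members passed with all arrays and 1, *Bcl2l11*, was higher with dim probe sets left out, with an intensity trend and robust prior, and without full epithelial replicate 3, so that leaving out 1 array gave 0 to 1. Leaving out dim probe sets also reduces the number tested. Of the differences of 13 member probe sets under 11 alternatives (143 in all), 133 kept their direction and side of the threshold, 8 passed only under the alternative and 2 turned sign, both of *Bcl2l1* (0.08 with all arrays, −0.22 without EpCAM+ plastic replicate 2 and −0.08 without full epithelial replicate 3, in a range of −0.22 to 0.32). The 8 were *Bcl2l11* probe sets, 4 of 5 with dim probe sets left out (smallest adjusted p = 0.0277), 2 with the trend and robust prior (0.0387 and 0.0465) and 2 without full epithelial replicate 3.

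The related genes gave 6 higher and 4 lower with all arrays, and 11 higher and 5 lower with dim probe sets left out. That filter called 1794 probe sets higher and 841 lower among fewer tested, against 1856 and 843 over the whole array. A further quantile normalization gave 4 related genes higher and 3 lower (without *Bag1*, *Fbxw7* and *Dusp1*). With 1 array left out, the related genes gave 0 to 11 higher and 2 to 5 lower. Replicate numbers were not taken as pairs, since the labels do not give the lineage of each tumor. The deviations of same-numbered arrays from their group means correlated at −0.18, −0.37 and −0.006, and those of differently numbered arrays at −0.29 to 0.38. With 3 arrays per group these values cannot show whether tumors are related. With the replicate block, 0 related genes were higher and 2 lower, and 307 probe sets were higher and 176 lower, against 1856 and 843 without it. Leaving out 1 array gave 403 to 1774 probe sets higher and 173 to 853 lower. That quantile normalization moved the share of calls that were higher to 56.5% (1334 higher and 1027 lower), against 68.8%. The cause of these changes was not tested. With 3 arrays per group the intervals are wide, and probe sets below background cannot show the size of a change.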
